A study of Zea mays with 10 samples.

Results

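MIR399 is a plant microRNA family whose precursor loci were followed here in maize male reproduction at prophase I of meiosis. The members were all rows of the prophase I tables with an ID of zma-MIR399 and a letter, and 2 loci met this rule, zma-MIR399b and zma-MIR399d, among 25844 features in all. Both loci stood in the table of whole anthers (48 miRNA loci, 25460 features) and in the table of isolated male germ cells (26 miRNA loci, 22786 features). The RefSeq gene table for the maize assembly Zm-B73-REFERENCE-NAM-5.0 names 10 MIR399 genes, from MIR399a to MIR399j. The other members of the family had no row in the files used here and were not analysed. The family was proposed with the ms28 changes of MIR399b in germ cells and of MIR399d in anthers already known. Values from the ms28 comparisons are therefore given as a description. Where the calls of the fit in these comparisons are counted, they show how the values stand to a threshold and are no test of the family.

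The miR399 family is best known from the response of plants to phosphate starvation. In Arabidopsis, the transcription factor PHR1 activates its genes when phosphate is short. The mature miRNA then directs cleavage of the mRNA of PHO2, a ubiquitin-conjugating enzyme that limits phosphate uptake and its transport to the shoot. A non-coding RNA, IPS1, binds miR399 without being cut and so holds its activity back. What was measured here is RNA assigned to the annotated precursor loci, so the level of mature miR399 and the activity of its targets were not observed.

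The series asks which maize transcripts are targets of 21-nt phasiRNAs, the phased small RNAs of grass anthers. Its RNA-seq part holds 10 libraries in 5 groups of 2, all from total RNA. Groups used here came from the inbred line B73 and the male-sterile mutant ms28, each with whole anthers and with male germ cells isolated from anthers, all at prophase I, in 2 libraries per group and 8 in all. The fifth group, premeiotic B73 anthers, stands in a table of 43789 features with 0 miRNA rows, so MIR399 was not followed before meiosis. No source used here says whether ms28 was bred into B73, whether a library came from the field or the greenhouse, or whether replicates are from different plants. Differences called ms28 differences may thus include other differences between the lines, and a p-value here covers library-to-library spread alone, some or all of it possibly technical.

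Values are TPM, the share that a transcript takes of all transcripts of its library after correction for length, and the sequencing depth behind them is unknown. The 100 most abundant features took between 19.6 and 28.0% of TPM in the B73 anther libraries and between 34.9 and 39.2% in those of ms28. In the 4 germ cell libraries this share lay between 20.8 and 22.5%. The median feature stood at 8.27 and 6.65 TPM in B73 anthers, at 4.45 and 4.66 TPM in ms28 anthers, and between 6.0 and 6.92 TPM in germ cells. The reference table matched 0 of the 43789 gene models, so no meiocyte or tapetum marker could be looked up and the tissue labels were not checked by markers.

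MIR399b and MIR399d are annotated in RefSeq as hairpins of 122 and 125 bases. Per the labels' protocols, cDNA fragments of 300 to 800 bp were selected for sequencing, which is longer than either hairpin, and the sources used here do not give the length behind each TPM value. In the order of genes in that reference, MIR399d shares its chromosome with no other MIR399 gene. MIR399a is the MIR399 gene nearest to MIR399b in that order, with 1938 genes between them. By contrast MIR399a and MIR399g are direct neighbours, and 1 gene each lies within the pairs MIR399c with MIR399f and MIR399h with MIR399i. The library method does not mark strand, so transcripts that overlap a locus on the other strand would be counted with it.

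MIR399d had its highest levels in whole anthers. In B73 anthers it read 11.4 and 9.19 TPM, and 121 and 71.3 TPM in the ms28 anther libraries. In germ cells it read 0.443 and 3.00 TPM in B73, and in ms28 it was listed at 0 in replicate 1 and read 0.837 TPM in replicate 2. All 4 anther libraries therefore lay above all 4 germ cell libraries, and both ms28 anther libraries lay above every other library. Of 20892 features fitted, 49.4% were lower in both germ cell libraries than in both anther libraries in B73 and 34.3% in ms28. Both ms28 anther libraries lay above both B73 anther libraries for 3.44%. The share of features with the full order of MIR399d was not counted. By group mean MIR399d was highest in ms28 anthers (96.2 TPM), then in B73 anthers (10.3 TPM). It was lower in B73 germ cells (1.72 TPM) and ms28 germ cells (0.419 TPM), whose libraries overlapped. Its percentile among all features of the table was 57.3 and 57.5 in B73 anthers and 95.5 and 92.6 in ms28 anthers. Among the 48 miRNA loci of the anther table it moved from ranks 16 and 18 in B73 to ranks 8 and 9 in ms28.

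MIR399b followed another order. In B73 anthers it read 52.3 and 14.4 TPM, and 12.3 and 20.4 TPM in the ms28 anther libraries, so the anther groups overlapped. In B73 germ cells it was listed at 0 in replicate 1 and read 3.79 TPM in replicate 2, and in ms28 germ cells both libraries read 25.15 TPM. Both ms28 germ cell libraries thus lay above both B73 germ cell libraries, as for 37.2% of the 20892 features fitted. B73 germ cells held the lowest values of MIR399b. Its percentile in the germ cell table was 0.696 and 39.7 in B73 against 75.0 and 75.2 in ms28. By group mean, MIR399b ran from B73 anthers (33.4 TPM) through ms28 germ cells (25.2 TPM) and ms28 anthers (16.4 TPM) to B73 germ cells (1.89 TPM). The range of the B73 anther libraries covered both ms28 germ cell values and overlapped that of ms28 anthers.

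**Figure D1:**
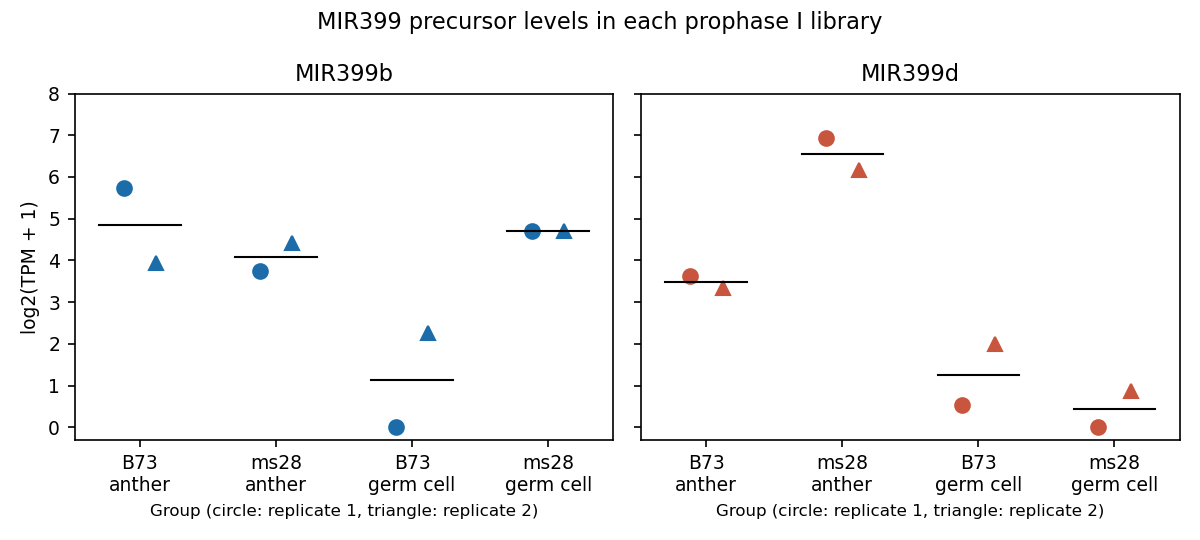
Level of MIR399b (left) and MIR399d (right) as log2(TPM + 1) in each prophase I library, with circles for replicate 1, triangles for replicate 2 and a line at the mean of the 2 log2 values. MIR399d is highest in the ms28 anther libraries (121 and 71.3 TPM), and MIR399b is lowest in the B73 germ cell libraries (0 and 3.79 TPM).

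The first comparison set ms28 anthers against B73 anthers at prophase I. MIR399d averaged 96.2 ± 35.2 TPM in ms28 and 10.3 ± 1.55 TPM in B73 (SD, n = 2 per group), a ratio of means of 9.35. On the log2(TPM + 1) scale, used for all differences below, MIR399d was 3.06 higher in ms28 anthers (SE 0.51). MIR399b averaged 16.4 ± 5.68 TPM in ms28 and 33.4 ± 26.8 TPM in B73 (SD, n = 2 per group), with a log2 difference of -0.76 (SE 0.75). The median of all 20892 tested features was -0.48 in this comparison, and after each library was centred on its median feature the values were 3.67 for MIR399d and -0.16 for MIR399b.

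At an adjusted p under 0.05 in the limma fit over all features, 1 of the 2 loci was called in anthers, MIR399d, as higher. Of all tested features 0.507% were called higher and 7.31% lower (106 and 1527), and centring turned this split to 185 higher and 122 lower. Both ms28 libraries lay above both B73 libraries for 3.44% of features and below them for 68.7%. Because MIR399d took part in the choice of the family, nothing is read from this count. Without 1 library, its difference ran from 2.69 to 3.44, and its adjusted p in limma rose above 0.05 with a pseudocount of 0.1 (0.084), in the anther table alone (0.0519), and when the fit left out B73 anther replicate 1 (0.0504), the first ms28 anther library (0.123) or ms28 germ cell replicate 1 or 2 (0.0537 and 0.0538).

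The B73 anther libraries differed widely for MIR399b. Replicate 1 read 3.64 times replicate 2, and 97.5% of the 20376 features at 1 TPM or more in both libraries had a smaller gap. The 48 miRNA loci together summed to 7273 TPM in replicate 1 and 2524 TPM in replicate 2. Of the 31 other miRNA loci compared in the same way, 18 were higher in replicate 1 and 13 in replicate 2. MIR399b was not alone in a wide gap. Replicates 1 and 2 read 3716 and 1318 TPM for MIR2275c, 655 and 177 TPM for MIR159g, and 79.3 and 18.8 TPM for MIR171d. Among abundant loci, MIR171f (47.0 and 56.1 TPM) and MIR528a (50.3 and 58.3 TPM) went the other way. MIR399d was 1.24 times higher in replicate 1, a gap wider than that of 44.5% of features. Without B73 anther replicate 1 the ms28 difference of MIR399b in anthers turned from -0.76 to 0.13, and without replicate 2 it was -1.66. What part the replicate gap has in the difference was not tested beyond these values.

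**Figure D2:**
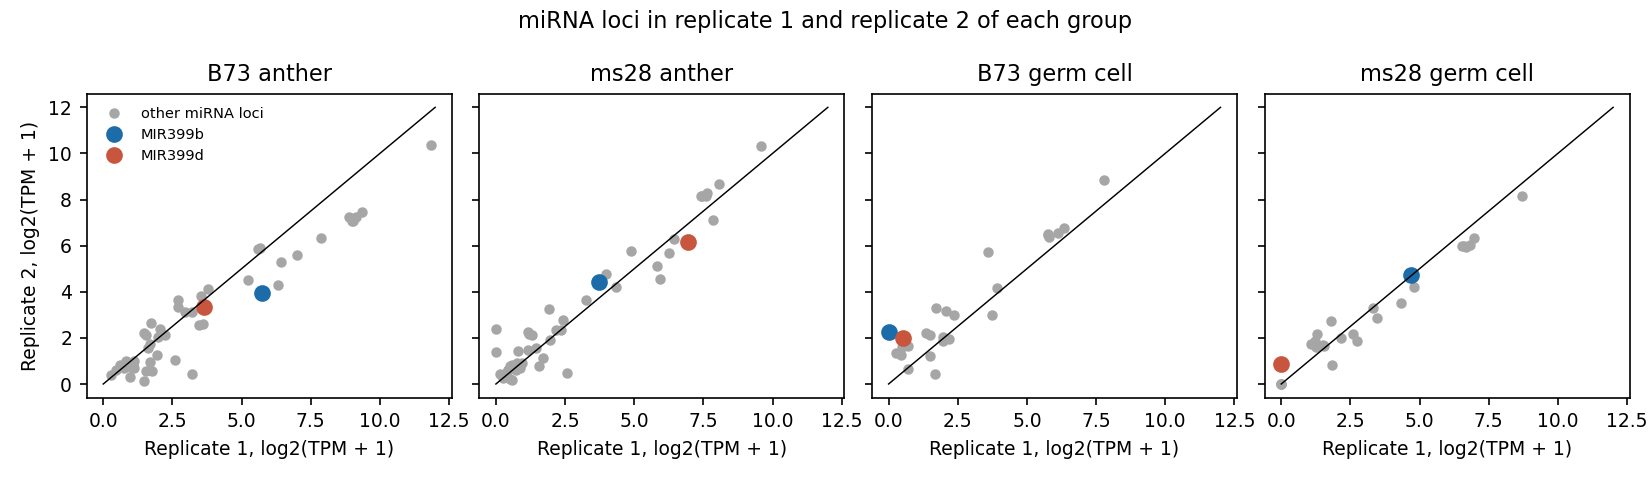
Level of each miRNA locus as log2(TPM + 1) in replicate 1 (horizontal) and replicate 2 (vertical) of the 4 groups, with MIR399b in blue, MIR399d in red, other loci in grey and a line of equality. In B73 anthers MIR399b (52.3 and 14.4 TPM) lies well below the line, while in ms28 germ cells it lies on it.

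In isolated germ cells the loci changed places. MIR399b, at 25.15 TPM in both ms28 libraries against 0 and 3.79 TPM in B73, was 3.58 higher in ms28 on the log2 scale (SE 0.75). Its ms28 values nearly coincided, and 0.0056% of the 17907 features at 1 TPM or more in both ms28 libraries had a smaller gap. MIR399d, at 0 and 0.837 TPM in ms28 against 0.443 and 3.00 TPM in B73, had a log2 difference of -0.83 (SE 0.51), and its groups overlapped. The median of all tested features was 0.07 in this comparison, and centring gave 3.49 for MIR399b and -0.92 for MIR399d.

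Of the 2 loci, limma called MIR399b higher in ms28 germ cells and did not call MIR399d. Of all tested features 9.05% were called higher and 5.29% lower (1890 and 1105), with 1718 higher and 1849 lower after centring, and the libraries did not overlap for 37.2% in the higher and 28.0% in the lower direction. MIR399b was one of the loci the family was chosen on, so this count too is a description. With a pseudocount of 0.1 the ms28 differences in germ cells were 5.34 for MIR399b and -2.08 for MIR399d, so sizes near 0 TPM depend on the pseudocount. The difference of MIR399b ran from 2.45 without B73 germ cell replicate 1 to 4.71 without B73 germ cell replicate 2. Leaving out ms28 germ cell replicate 1 or 2 kept it at 3.58. The adjusted p in limma rose above 0.05 without B73 germ cell replicate 1 (0.0834) and without ms28 germ cell replicate 1 or 2 (0.148 and 0.0943).

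Within B73 germ cells the replicates stood apart for both loci. MIR399b was listed at 0 in replicate 1 and read 3.79 TPM in replicate 2, and MIR399d read 6.77 times more in replicate 2. That gap of MIR399d was wider than that of 99.8% of the 17123 features at 1 TPM or more in both libraries. MIR399d itself read 0.443 TPM in replicate 1, below that limit, so it is not compared with features of its own level. Of 18 other miRNA loci at 1 TPM or more in both libraries, 14 were higher in replicate 2 and 4 in replicate 1. The miRNA loci of the table summed to 600 TPM in replicate 1 and 1048 TPM in replicate 2.

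The ms28 difference in germ cells minus that in anthers was 4.34 for MIR399b (SE 1.06) and -3.89 for MIR399d (SE 0.71). These values are built from the comparisons the loci were chosen on and are a description. Both loci were past the threshold of the limma fit, as were 13.9% of all features in the positive and 0.512% in the negative direction (2902 and 107, or 187 and 265 after centring). That count of 2 fell to 1 or 0 in 6 of the 8 fits without 1 library. It was 0 with a pseudocount of 0.1, and 1 with centring, quantile normalization or the replicate block, where MIR399b missed the threshold (adjusted p = 0.0791, 0.118 and 0.0521 in limma).

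Adding MIR399b and MIR399d gives the RNA assigned to these 2 loci in each library. The other MIR399 genes had no row, so the sum does not stand for the family. The sum was 63.7 and 23.6 TPM in B73 anthers, 133 and 91.7 TPM in ms28 anthers, 0.443 and 6.79 TPM in B73 germ cells, and 25.2 and 26.0 TPM in ms28 germ cells. It was higher in both ms28 libraries than in both B73 libraries in each tissue, through MIR399d in anthers and MIR399b in germ cells. Of all single features fitted, 3.44% stood in this order in anthers and 37.2% in germ cells, so it was common in germ cells. The ratio of the group means, ms28 to B73, was 2.58 in anthers and 7.07 in germ cells. Since each locus entered this sum with a known ms28 difference, the sum is no separate result.

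The makeup of the sum also differed between groups. MIR399b made up 82.1 and 61.0% of it in the B73 anther libraries and 9.25 and 22.2% in the ms28 anther libraries. In ms28 anthers MIR399d stood at 9.81 and 3.50 times the TPM of MIR399b, a comparison of levels per length. In ms28 germ cells MIR399b held 100 and 96.8% of the sum. In B73 germ cells it held 0% in replicate 1, where the whole sum was 0.443 TPM, and 55.8% in replicate 2. Across the 8 libraries the log2 levels of the loci had a Pearson correlation of 0.28.

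**Figure D3:**
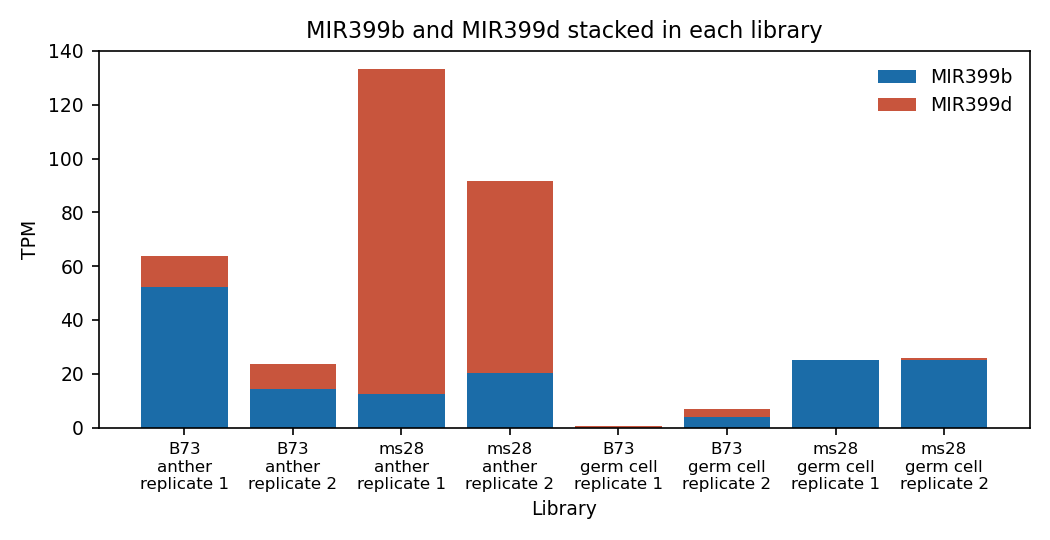
TPM of MIR399b (blue) with MIR399d (red) stacked on it, for each prophase I library. MIR399d fills most of the bar in ms28 anthers (sums of 133 and 91.7 TPM) and MIR399b nearly all of it in ms28 germ cells (25.2 and 26.0 TPM).

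The comparison of germ cells with whole anthers within a genotype was not itself what the loci were chosen on, but it is not independent of that choice. The anther values of MIR399d and the germ cell values of MIR399b entered the choice, and they form a side of this comparison. Its differences, p-values and ranks are therefore a description too. MIR399d also met the filter of 1 TPM in 2 libraries through its anther values. In germ cells only B73 replicate 2 reached 1 TPM for it. In B73 both loci were lower in germ cells. MIR399b had a log2 difference of -3.71 (SE 0.75, adjusted p = 0.0026 in limma), and MIR399d one of -2.22 (SE 0.51, adjusted p = 0.0046), and neither locus overlapped between the tissues, as was the case for 49.4% of all features in this direction and 34.3% in the other. Both were called, in a comparison where 41.2% of all tested features were called lower and 27.0% higher (8602 and 5645, or 6590 and 7666 after centring), so a lower value in germ cells was common. The median of all features was -0.36, and the centred differences were -3.29 for MIR399b and -1.80 for MIR399d. Of the 25 miRNA loci tested, MIR399 included, 19 were called lower. The median difference of all 25 was -2.09, and the difference of MIR399d was close to that median. Of all tested features 1.71% had a lower log2 difference than MIR399b and 10.9% a lower one than MIR399d.

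In ms28 the loci parted. MIR399d was lower in germ cells by a log2 difference of -6.12 (SE 0.51, adjusted p = 8.07e-05 in limma), and 0.067% of features had a lower one. MIR399b had a log2 difference of 0.63 (SE 0.75, adjusted p = 0.5 in limma), with an interval for the difference from -1.09 to 2.36 at 95% confidence. Both ms28 germ cell libraries lay above both ms28 anther libraries for MIR399b, as was the case for 47.6% of features, against 34.3% in the direction of MIR399d. Here 21.5% of features were called lower and 35.2% higher in germ cells (4484 and 7346, or 6288 and 6049 after centring), around a median of 0.19. Of the 25 miRNA loci 15 were called lower, and the median of all 25 was -1.50. After centring the differences were -6.39 for MIR399d and 0.36 for MIR399b.

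Each of the 3 tissue calls of the MIR399 loci held in the fits run without 1 library. The B73 difference ran from -4.84 to -2.58 for MIR399b and from -2.96 to -1.49 for MIR399d, with both extremes of both loci in the fits without B73 germ cell replicate 2 or 1. The ms28 difference of MIR399d ran from -6.55 to -5.68. With a pseudocount of 0.1 that difference was -8.25, and those in B73 were -5.47 for MIR399b and -2.99 for MIR399d. Anthers and germ cells were deposited in separate tables, so tissue and table cannot be told apart. In bulk RNA, fewer cells of a type and less RNA per cell cannot be told apart either.

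**Figure D4:**
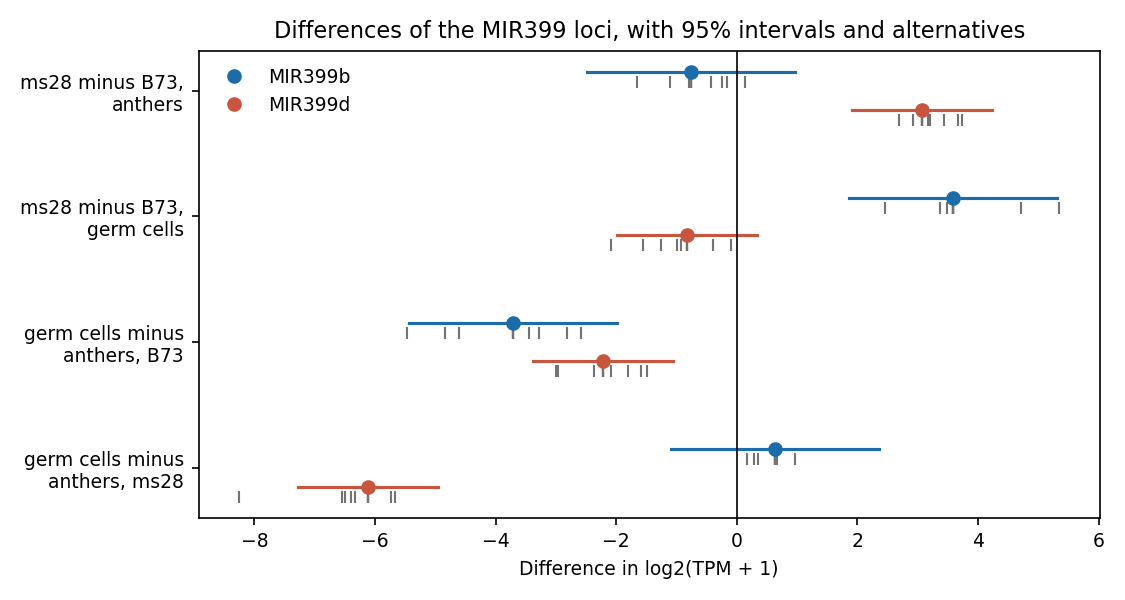
Difference in log2(TPM + 1) of MIR399b (blue) and MIR399d (red) in 4 comparisons, with lines for the 95% interval of the limma fit and grey ticks below each line for the values under the alternative settings. Both loci lie left of 0 between tissues in B73, while in ms28 only the line of MIR399d, at -6.12, is clear of 0.

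Other features with a similar course were sought over the 8 libraries, by the Pearson correlation of log2(TPM + 1) with each locus among 16646 features with a mean of at least 5 TPM in their highest group. For MIR399d the most similar miRNA locus of another family was MIR2275b (r = 0.98), of the family that triggers the 24-nt phasiRNAs of anthers. MIR2275b read 12.7 and 16.4 TPM in B73 anthers, 74.6 and 50.9 TPM in ms28 anthers, and between 0.614 and 2.29 TPM in the 4 germ cell libraries. Like MIR399d, it was higher in both ms28 anther libraries than in all others. In all, 144 features had a correlation over 0.9 with MIR399d.

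The gene models most similar to MIR399d were Zm00001d045965 (r = 0.98) and Zm00001d003252 (r = 0.97). Zm00001d003252 averaged 13.7 TPM in B73 anthers, 38.5 TPM in ms28 anthers, and 3.26 and 3.18 TPM in B73 and ms28 germ cells. Zm00001d045965 covered a narrower range, with group means from 62.5 TPM in ms28 germ cells to 105 TPM in ms28 anthers. A high correlation on this scale thus says nothing of the size of a change.

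For MIR399b the most similar miRNA locus of another family was MIR2118g (r = 0.88), of the family that triggers 21-nt phasiRNAs. MIR2118g read 1.53 and 3.62 TPM in B73 germ cells, where it was lowest, and 10.0 and 6.28 TPM in ms28 germ cells. In anthers it read 10.5 and 12.97 TPM in B73 and 8.44 and 11.4 TPM in ms28, without the replicate gap of MIR399b. Zm00001d025235 and Zm00001d039658 were the gene models most similar to MIR399b (r = 0.98 for each), and 166 features had a correlation over 0.9. All these correlations rest on the same 8 libraries, which share tissue, table and genotype, and they are given as descriptions.

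**Figure D5:**
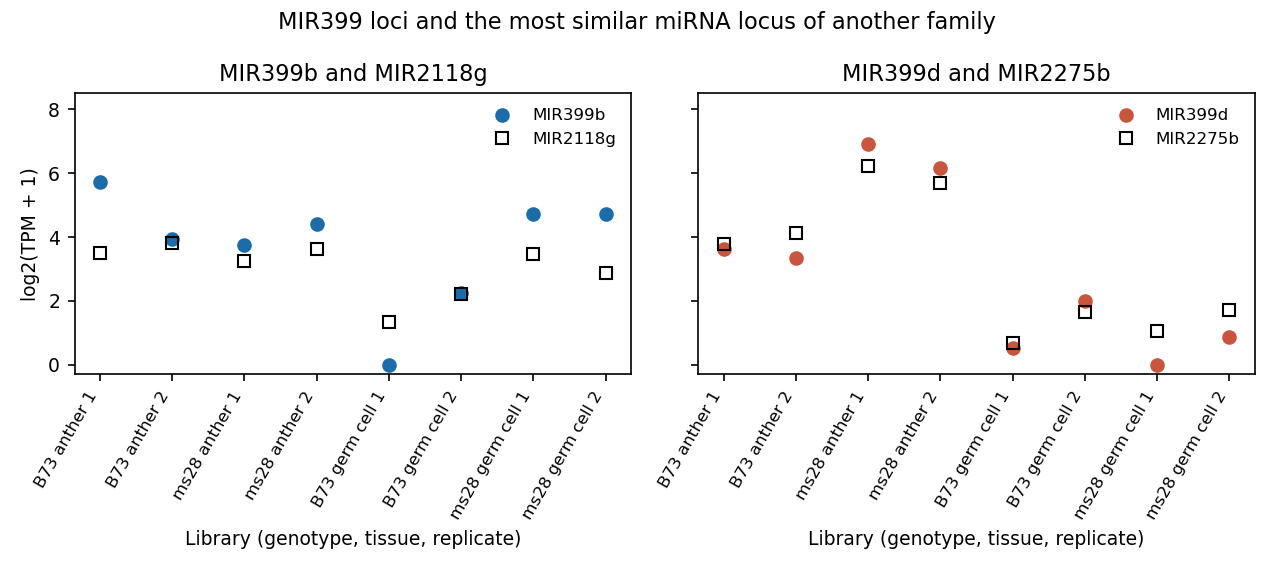
Level as log2(TPM + 1) in the 8 prophase I libraries of MIR399b with MIR2118g (left) and of MIR399d with MIR2275b (right), filled circles for MIR399 and open squares for the other locus. MIR399d and MIR2275b are both highest in the ms28 anther libraries, and MIR399b and MIR2118g are both lowest in the B73 germ cell libraries.

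MIR399 was also set beside the other miRNA loci of nutrient responses. MIR827, a further miRNA of the phosphate response, had 0 rows, and the 44 symbols listed for phosphate transport and signalling genes matched 0 features. The list thus came down to 6 loci of sulfate and copper responses, MIR395c, MIR397b, MIR398a, MIR398b, MIR408b and MIR528a, of which 5 stood in both tables and were tested (MIR397b did not). In ms28 against B73, limma called 0 of these 5 in anthers and 0 in germ cells, with 0 and 2 at an unadjusted p under 0.05. Those 2 were MIR395c, of a family that targets sulfate assimilation genes, and MIR398b, of a family that targets copper superoxide dismutase, both named after their values were seen. MIR395c read 0.624 and 0.555 TPM in B73 germ cells and 3.45 and 3.03 TPM in ms28 germ cells (log2 difference 1.41, SE 0.47, adjusted p = 0.0777 in limma). MIR398b had a difference in the other direction, at 0.395 and 2.02 TPM in B73 germ cells and 0 in each ms28 germ cell library (log2 difference -1.04, SE 0.42, adjusted p = 0.121 in limma). The median ms28 difference of the 5 loci was -0.09 in anthers and -0.73 in germ cells.

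Between tissues, 4 of the 5 nutrient loci were called lower in germ cells in B73 and 4 of 5 in ms28, against 41.2 and 21.5% of all features. Of the 25 miRNA loci tested, these 5 included, 19 were called lower in B73 and 15 in ms28, so such calls were common among miRNA loci. The 4 nutrient loci were MIR398a, MIR398b, MIR408b, of a family that targets plantacyanin and laccase genes, and MIR528a, whose targets in grasses include copper proteins. Their log2 differences lay between -3.28 and -2.08 in B73 and between -3.64 and -2.36 in ms28. MIR395c was not called (-1.15 in B73 and 0.36 in ms28, adjusted p = 0.0579 and 0.543 in limma). The median of the 5 loci was -2.27 in B73 and -2.97 in ms28, beside -2.09 and -1.50 for the 25 miRNA loci and -0.36 and 0.19 for all features tested.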

How the data were processed

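RNA-seq libraries were made with a Smart-seq type method, per the labels' protocols. Tools named in the submitters' processing notes are featureCounts 2.0.1, HISAT2 2.2.1, DESeq2, Cufflinks and Trimmomatic 0.33, with the build B73 RefGen_v4, and their roles are not stated. The deposited prophase I values were read as TPM because each column summed to between 99.1 and 99.4% of 1000000, and no header names the unit. Columns were matched to samples by their header lines (WT, read as B73, or ms28, and replicate).

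All 8 prophase I libraries entered 1 limma-trend model (limma 3.58.1, R 4.3.3) of log2(TPM + 1) with a mean for each group and without a replicate block. Of 22402 features in both tables, 20892 reached 1 TPM in 2 or more libraries and were fitted, with p adjusted by Benjamini-Hochberg over all of them and a threshold of 0.05. The fit was first run on simulated data with independent normal noise of equal spread for every feature. Changes were planted in features of middle abundance only, so that run does not cover loci near 0 TPM. TPM are not counts, so no count model was run. Alternatives were a pseudocount of 0.1, no filter, centring, quantile normalization, a replicate block, each table alone, and leaving out each library. MIR399d did not pass the filter in the germ cell table alone, so that alternative covers it in anthers only.

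All MIR399 loci were named. Other features named by rule were nutrient miRNA loci past the threshold and, per locus, the 2 gene models and 1 other miRNA locus with the highest correlation. MIR395c and MIR397b were named outside this rule. Members and lists were chosen with earlier results of these data known. The assembly of the reference gene table differs from the files' build, so it gave names, gene order and hairpin lengths but no coordinates. Mature and hairpin sequences and promoters were not used here. Descriptive values came from numpy 2.4.6 and pandas 2.3.3 under Python 3.11.15, and figures from matplotlib 3.10.9.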

Additional observations from a re-analysis of the deposited data

Results flagged for a closer look

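The ms28 difference in germ cells minus that in anthers is listed for both loci because it was past the threshold of the limma fit. It was 4.34 on the log2 scale for MIR399b (SE 1.06) and -3.89 for MIR399d (SE 0.71). Both values are built from the ms28 comparisons on which the loci were chosen, so they are a description and not evidence that the effect differs between the tissues. The median of all tested features was 0.56. After centring the value was 3.64 for MIR399b, no longer past the threshold (adjusted p = 0.0791 in limma), and -4.59 for MIR399d (adjusted p = 0.0306). Without 1 library MIR399b missed the threshold in 6 of 8 fits and MIR399d in 3 of 8, with adjusted p in limma of up to 0.128 and 0.102.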

How the results depend on the processing

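The tissue calls of the MIR399 loci (2 in B73 and 1 in ms28), also a description, held under all alternatives with all 8 libraries. In ms28 against B73 anthers the count of called loci was 1 and became 0 with a pseudocount of 0.1 and in the anther table alone (adjusted p = 0.084 and 0.0519 for MIR399d in limma), and ran from 0 to 1 without 1 library. In germ cells it was 1 and ran from 0 to 1 without 1 library. For the difference of the ms28 effect between the tissues it was 2, became 0 with a pseudocount of 0.1 and 1 with centring, quantile normalization or the replicate block, and ran from 0 to 2 without 1 library. The call lost under the replicate block was that of MIR399b (adjusted p = 0.0521 in limma), and the block changed no other call. Replicate numbers are shared between groups by label only, and replicate differences of the groups correlated between -0.081 and 0.14. The direction of MIR399b in anthers turned to 0.13 without B73 anther replicate 1, at the upper end of a range from -1.66. Features called in all went from 1633 to between 59 and 4241 in ms28 against B73 anthers, from 2995 to between 293 and 4092 in germ cells, and from 3009 to between 0 and 4475 for the difference, each over the fits without 1 library. At 0 calls (limma, without ms28 germ cell replicate 1), 5231 features had an unadjusted p under 0.05. Centring left 307 and 452 calls in anthers and for the difference, quantile normalization 318 and 221, the replicate block 1046 and 1870, and the anther table alone 67. No MIR399 locus stood in 1 prophase I table only, so the fits listed for such loci were not run. Depth is unknown, so values near 0 carry no counting interval. The causes of these changes were not tested.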
